A study of Mus musculus with 4 samples.

Results

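The genes described here are those of the interferon system, from the interferons and their receptors, through the sensors of viral nucleic acid and the transcription factors they act on, to the antiviral effectors and the machinery of class I antigen presentation. They were taken by name from a list of 55 genes, of which 50 had a probe set annotated to that gene alone on the arrays used, among 19938 such genes in all. Isg15, Gbp2, Igtp and Ifi47 each had 1 probe set, shared with another gene, and Ifi44 had none listed, so these 5 have no value here. The cells were NIH3T3, an established line of mouse fibroblasts, in a stable clone that carried the integrates pBI-EGFP-FLAG-mCtcfl and pTA-N. In this Tet-Off clone doxycycline holds down the vector's mouse Ctcfl, the gene of CTCFL (BORIS), a germline paralog of the insulator protein CTCF. The 2 control samples had 2 µg/ml doxycycline and the 2 Ctcfl samples had 48 h without it, so drug and induction cannot be told apart, and all 4 samples shared the same clone and the same vectors.

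Type I interferons such as interferon beta bind the receptor made of IFNAR1 and IFNAR2, and interferon gamma binds the receptor made of IFNGR1 and IFNGR2. Type I signals reach the nucleus through a complex that contains IRF9, which binds an interferon-stimulated response element and switches on genes such as Ifit1, Oas2 and Mx1. Fibroblasts are a classical source of interferon beta, which they make when RIG-I (Ddx58), MDA5 (Ifih1) or TLR3 detects viral RNA and TBK1 activates IRF3.

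The comparison asked which of these genes differ when Ctcfl is induced in fibroblasts. Values are the authors' RMA values, which are log2 intensities summarised per probe set, and differences are Ctcfl minus control on that scale. Ctcfl itself had 7.77 and 7.71 in the control arrays against 10.37 and 10.35 in the Ctcfl arrays (limma adjusted p = 5.38e-04). Separate cultures are not stated for the replicates, and the p-values therefore rest on differences between arrays that may be technical. With 4 arrays the precision is limited. Of 8 fibroblast markers, none lay in the low range of values, and their mean was 10.22 to 10.23 in the control and 10.01 to 10.06 in the Ctcfl arrays. The low range is taken as values below 4.57, the 95th percentile of the mean values of 1194 olfactory and vomeronasal receptor genes, which fibroblasts are not known to use, and it is only a rough mark because probe sets differ in brightness. The mean of 8 macrophage and leukocyte markers was 4.57 to 4.64 in the control and 4.54 to 4.58 in the Ctcfl arrays. Of these 8 markers, 5 lay in the low range, among them the leukocyte gene Ptprc with 4.10 to 4.18 over all arrays. Cd68, Csf1r and Cd3e lay above that range, and Cd68 had 6.11 to 6.39 over all arrays. Of 5 endothelial markers all lay in the low range. Of 6 epithelial markers 1 did, and their mean was 4.85 to 4.86 in the control and 4.89 to 4.95 in the Ctcfl arrays. Single markers differed by more than these means. The fibroblast genes Pdgfrb, Col3a1 and Pdgfra had log2 differences of -0.56, -0.38 and -0.29 (limma adjusted p = 0.18, 0.288 and 0.387) and the epithelial keratin gene Krt8 had 0.57 (adjusted p = 0.312). Their part in the results was not tested.

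No member passed an adjusted p of 0.05 over all genes by limma, where 0.0451% of all genes did. At an unadjusted p of 0.05 there were 6 members (12%), against 10.7% of all genes. Of these, 4 were higher, against 5.36% of all genes, and 2 were lower, against 5.32%. The 6 were Ifnz, Tlr3, Rtp4 and Tap2, higher in the Ctcfl arrays, and Ifnar2 and Irf3, lower there. The median log2 difference of the 50 members was 0.0225, against 0 over all genes, with 28 members higher, 21 lower and Bst2 at 0. The arrays of one group lay wholly above or below those of the other for 13 members (26.0%), against 41.1% of all genes. Only Ifnz among the members differed by at least 1.5-fold, as did 0.441% of all genes, and 46 members (92.0%) differed by at most 1.2-fold, against 91.2% of all genes.

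The intervals describe how closely the array values bound each difference, and not the change in RNA itself. The 95% interval of the difference lay inside 1.5-fold in both directions for 47 members, and its median half-width was 0.26 on the log2 scale. The 3 members with a wider reach were Ifnz, Tlr3 and Rtp4. For 16 of the 50 members the mean value lay in the low range, and 31.9% of all genes lay there. A narrow interval for these 16 may reflect little signal, so it sets no limit on what could have been missed.

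**Figure D1:**
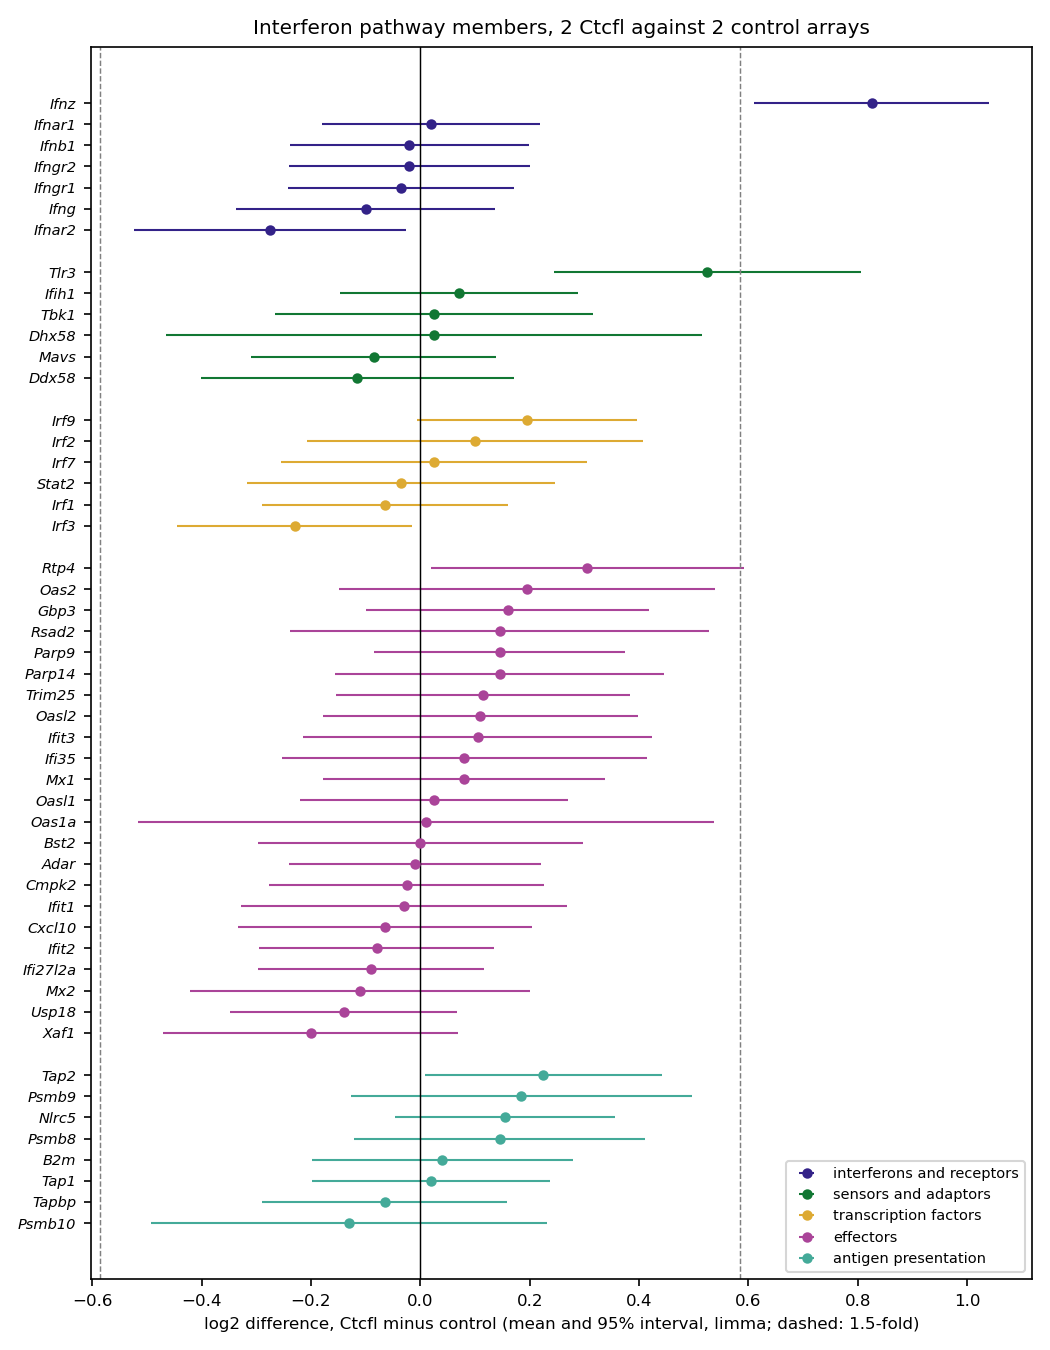
Log2 difference of each measured member (x axis, Ctcfl minus control, with its 95% interval by limma), grouped by class; dashed lines mark 1.5-fold. Ifnz at 0.82 is the only point past a dashed line, Tlr3 follows at 0.52, and all others lie between -0.275 and 0.305.

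The interferons and receptors held the member with the smallest p. Ifnz encodes interferon zeta, also called limitin, a type I interferon of the mouse that signals through the type I receptor. Its probe set had 6.87 and 6.80 in the control arrays and 7.71 and 7.61 in the Ctcfl arrays. Both Ctcfl arrays lay clear of both controls, by more than the spread within either pair. The log2 difference was 0.82 (SE 0.09, 95% interval 0.61 to 1.04), or 1.77-fold, with a limma p of 7.11e-05 and an adjusted p of 0.0791, so it did not pass. It passed with an intensity trend and robust variances (adjusted p = 4.91e-05) and without the dimmest genes (adjusted p = 0.0347). It did not pass after median centring (0.112), with ordinary t statistics (0.424), with the replicate block (0.651) or with 1 array left out (adjusted p from 0.539 to 0.649).

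Ifnz has copies with near-identical start windows, and what its probe set measures is uncertain from the annotation. Ifnz lies on chromosome 4 at chr4:88782131-88783592 on the plus strand of GRCm38.p6, inside the type I interferon cluster. RefSeq's table of that build gives a window from 250 bases before to 50 after each gene start. Over the 300 bases, the windows of Gm13276 and Gm13277 were identical to that of Ifnz, and those of Gm13278 and Gm13288 differed from it at 1 base. The stretch with that base is printed to let the copies be compared, with position 90 of the window in capitals, counted from 1 at its 5′ end and 161 bases before the start. The changes were T90G in Gm13278 and T90C in Gm13288.
Ifnz (chr4:88781941-88782000): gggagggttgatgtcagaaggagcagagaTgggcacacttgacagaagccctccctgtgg
Gm13276 (chr4:88784864-88784923): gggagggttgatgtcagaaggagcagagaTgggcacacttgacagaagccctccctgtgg
Gm13278 (chr4:88790705-88790764): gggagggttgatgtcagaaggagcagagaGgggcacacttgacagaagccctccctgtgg
Gm13288 (chr4:88805341-88805400): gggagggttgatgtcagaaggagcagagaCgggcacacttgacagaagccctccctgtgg

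The platform annotation ties 19 probe sets to Ifnz, of which only the one above names it alone. That one lists a cDNA clone and not the coding RefSeq transcript of Ifnz. The same clone is listed by 3 further probe sets, which are annotated to both Ifnz and Gm13274. Gm13274 is a long noncoding RNA gene of the minus strand at chr4:88738310-88744717, and it does not overlap Ifnz in RefSeq. Together these 4 probe sets had 6.56 to 6.87 in the control and 7.42 to 7.71 in the Ctcfl arrays, with log2 differences of 0.82 to 0.87. The probe set of Gm13274 alone had 4.87 and 5.03 in the control arrays and 5.75 and 5.28 in the Ctcfl arrays, a log2 difference of 0.56 (SE 0.16, limma adjusted p = 0.361).

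The coding transcript of Ifnz is listed by the other 15 probe sets, each annotated also to the genes Gm13288, Gm13275, Gm13272, Gm13290 and Gm13271. They are not 15 independent measurements: 6 of them carried the same values on all 4 arrays to the 2 decimals given, and only 9 distinct sets of values were present. Their values ran from 4.94 to 5.95 in the control and from 5.56 to 6.23 in the Ctcfl arrays. Both Ctcfl arrays lay above both controls, as in 20.6% of all genes, within each of these probe sets. Their log2 differences were 0.24 to 0.58, all smaller than those of the probe sets that list cDNA clones. With the mean of the 15 standing for Ifnz, a choice made after the values were seen, the log2 difference was 0.42 (SE 0.11, 95% interval 0.16 to 0.69, limma adjusted p = 0.339). In a fit over all probe sets none of the 19 passed (limma adjusted p from 0.600 to 0.667). Which copy, and which strand, gave the signal was not tested.

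**Figure D2:**
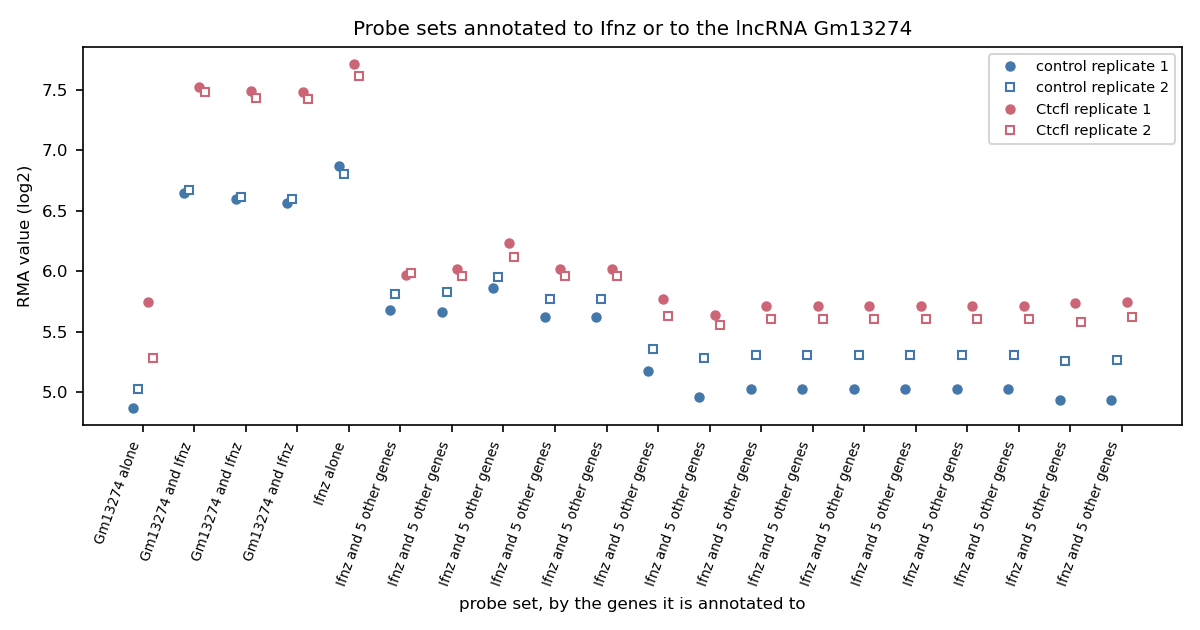
RMA value (log2, y axis) in each of the 4 arrays for the probe sets annotated to Ifnz or to Gm13274 (x axis, labelled by the genes each is annotated to). In every column both Ctcfl arrays lie above both control arrays, as in 20.6% of all genes. The log2 difference is largest, 0.82 to 0.87, in the 4 columns of Ifnz alone or Ifnz with Gm13274.

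The cluster that holds Ifnz runs from Ifnb1 to Ifne, chr4:88522025-88880201, and RefSeq lists 40 genes in it, of which 16 had a value. The other 12 measured interferon genes had log2 differences from -0.29 (Ifna11) to 0.37 (Ifna13), with a median of 0.04, and none passed (lowest limma adjusted p = 0.401). Ifna13, an interferon alpha gene, had 3.30 and 3.53 in the control and 3.89 and 3.68 in the Ctcfl arrays, and 8 of these 12 lay in the low range as it did. Klhl9, a neighbour that is no interferon gene and encodes an adaptor of a ubiquitin ligase, had 9.18 and 9.20 against 9.18 and 9.05. Of the 16 genes, 3 reached an unadjusted p of 0.05, namely Ifnz, Gm13274 and Ifna13, where 10.7% of all genes did. In all of them the Ctcfl arrays lay above the controls, as in 20.6% of all genes, and Ifnz and Gm13274 share a clone in their annotation. Whether a transcript from Gm13274 contributes to the Ifnz value was not tested.

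**Figure D3:**
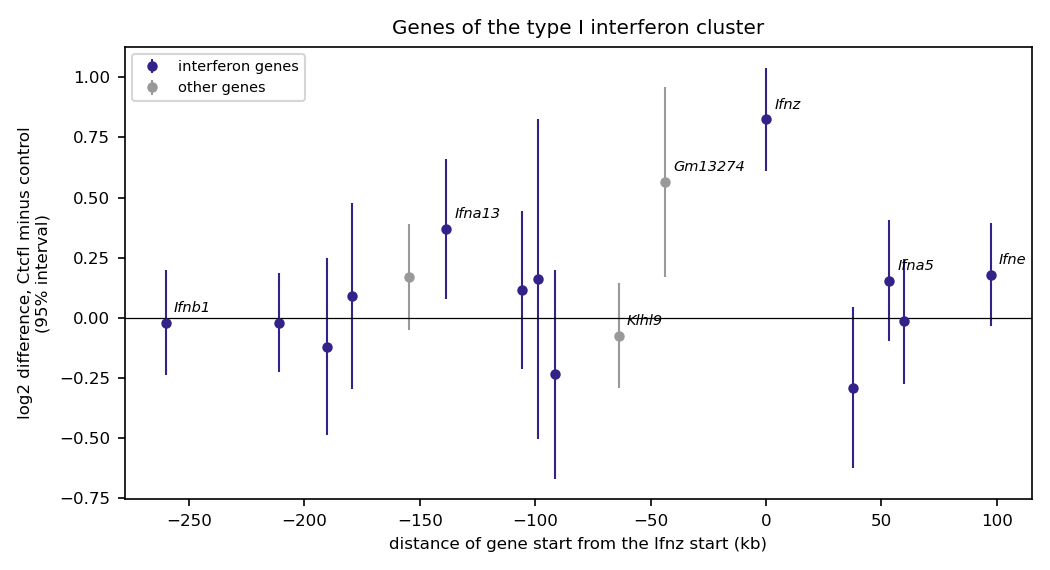
Log2 difference (y axis, with 95% interval by limma) of the 16 measured genes of the type I interferon cluster, placed by the distance of the gene start from that of Ifnz (x axis, kb). Ifnz at 0.82 and Gm13274 at 0.56 are the highest points, and the other interferon genes lie between -0.29 and 0.37 around 0.

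Among the other interferons, Ifnb1 had 4.07 and 4.04 in the control and 3.97 and 4.10 in the Ctcfl arrays, and Ifng, the interferon of lymphocytes, had a log2 difference of -0.10. The mean over the 4 arrays lay in the low range for both genes. Ifnar2, the chain of the type I receptor that binds ligand most tightly, had 7.50 and 7.30 in the control and 7.17 and 7.08 in the Ctcfl arrays. Its groups did not overlap, but the gap between them was 0.13 and the control pair alone spanned 0.20. The log2 difference was -0.27 (SE 0.10, 95% interval -0.52 to -0.03, limma adjusted p = 0.439), and it was -0.17 without control replicate 1. Its partner Ifnar1 had 0.02 (95% interval -0.18 to 0.22). The gamma receptor chains Ifngr1 and Ifngr2 had -0.04 and -0.02. Ifngr2, which had the highest values of the class, had 9.01 and 9.10 against 9.09 and 8.98, and its groups overlapped.

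In the class of sensors and adaptors, 1 of 6 members reached an unadjusted p of 0.05, against 10.7% of all genes. Tlr3, the endosomal receptor for double-stranded RNA, had 4.10 and 4.38 in the control arrays and 4.73 and 4.80 in the Ctcfl arrays. Both Ctcfl arrays were higher, and the mean over the 4 arrays lay in the low range. The log2 difference was 0.52 (SE 0.12, 95% interval 0.24 to 0.81), or 1.44-fold, with an adjusted p of 0.276 by limma. The cytosolic RNA sensors had 95% intervals that included 0: Ddx58 (RIG-I) had -0.11, Ifih1 (MDA5) had 0.07 and the regulator Dhx58 (LGP2) had 0.02. Ifih1 and Dhx58 lay in the low range as well. Mavs, the mitochondrial adaptor of both sensors, had 8.39 and 8.37 against 8.37 and 8.22, and the kinase gene Tbk1 had a log2 difference of 0.02. Dhx58 had a wide interval, from -0.46 to 0.51, and its values were spread within both pairs.

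Of the 6 transcription factors 3 had higher and 3 lower values. An unadjusted p of 0.05 was reached by 1 of them, against 10.7% of all genes. Irf3, the factor that TBK1 activates after virus detection, had 7.55 and 7.66 in the control and 7.40 and 7.35 in the Ctcfl arrays. The groups were apart by 0.15, and the control arrays differed by 0.11. The log2 difference was -0.23 (SE 0.09, 95% interval -0.44 to -0.02, limma adjusted p = 0.446). Irf9, a DNA-binding factor of the type I response, had 5.37 and 5.42 against 5.59 and 5.59, a log2 difference of 0.19 (SE 0.08, adjusted p = 0.474). Stat2, a transcription factor of the same response, had -0.04. Irf7, which is itself induced by interferon and amplifies the response, had 0.02 and lay in the low range. Irf1, a target of interferon gamma, had -0.06, and Irf2, its antagonist, had 0.10.

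The effectors are genes that interferon signalling induces, many of which encode antiviral proteins. Of 23 measured, 13 had higher and 9 lower values in the Ctcfl arrays, with differences from -0.20 to 0.31 and a median of 0.02, and 10 lay in the low range. Rtp4, an interferon-induced chaperone of receptors with antiviral activity, was the only one to reach an unadjusted p of 0.05, against 10.7% of all genes. It had 4.59 and 4.85 in the control and 5.10 and 4.95 in the Ctcfl arrays. The groups were 0.10 apart, less than the 0.26 between the controls, and the log2 difference of 0.31 (SE 0.12, 95% interval 0.02 to 0.59) had an adjusted p of 0.446 by limma. It was 0.17 without control replicate 1.

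Effectors next in order of p pointed in both directions, and of these Xaf1, Usp18 and Gbp3 lay in the low range. Xaf1, an interferon-induced promoter of apoptosis, had 4.43 and 4.52 in the control and 4.40 and 4.15 in the Ctcfl arrays, a log2 difference of -0.20 (95% interval -0.47 to 0.07) that was -0.07 without Ctcfl replicate 2 and -0.32 without Ctcfl replicate 1. Usp18, the protease that removes ISG15 and dampens signalling at the type I receptor, had 4.42 and 4.50 against 4.34 and 4.30, a difference of -0.14. For both genes the Ctcfl arrays lay below the controls by 0.08 or less. Parp9, an ADP-ribosyltransferase partner that strengthens interferon signalling, had 5.53 and 5.53 against 5.76 and 5.59, a difference of 0.14. Gbp3, a GTPase that attacks intracellular pathogens, had 3.90 and 4.05 against 4.04 and 4.23, and its groups overlapped.

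Classical targets of type I interferon had small differences, but many of them were dim. Ifit1, Oas2, Rsad2, Mx1, Mx2, Cmpk2 and Parp14 lay in the low range. Ifit3, Oas1a, Oasl2, Cxcl10 and Ifi27l2a lay little above it. For such genes a small difference cannot tell an unchanged gene from one too dim to measure. The RNA-binding proteins Ifit1, Ifit2 and Ifit3 had log2 differences of -0.03, -0.08 and 0.11. Ifit2 had the highest values of the class, 8.22 and 8.20 in the control and 8.07 and 8.19 in the Ctcfl arrays, and its 95% interval ran from -0.30 to 0.14. The oligoadenylate synthetases and their relatives Oas1a, Oas2, Oasl1 and Oasl2, which sense double-stranded RNA, had 0.01 to 0.20. The dynamin-like GTPases Mx1 and Mx2 had 0.08 and -0.11. Rsad2 (viperin), which makes an antiviral nucleotide, had 0.14 and its genomic neighbour Cmpk2, a nucleotide kinase, had -0.03. The chemokine gene Cxcl10 had -0.06, the membrane tether gene Bst2 had 0.00, and Adar, the RNA-editing enzyme, had -0.01. The other 4 effectors had -0.09 (Ifi27l2a), 0.08 (Ifi35), 0.11 (Trim25, which activates RIG-I) and 0.14 (Parp14).

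Sequence matches to a response element of type I interferon are shown to describe the start windows of these genes. A match does not establish a working site, and a gene without a match may carry one elsewhere. A RefSeq start window of GRCm38.p6 was held for 39 of the 50 measured members. The core of an interferon-stimulated response element was searched as GAAA, any 2 bases and GAAA again, on both strands, so that TTTC, any 2 bases and TTTC counts as the same motif. They occurred in 12 of the 39 members (30.8%), against 3.99% of 27025 genes with a window. By class the motif was found in 7 of 15 effectors, 2 of 5 sensors, 2 of 6 transcription factors, 1 of 6 antigen presentation genes and 0 of 7 interferons and receptors. The printed stretches lie before the start that RefSeq's window table uses, with the match in capitals. For Ifit3 that start lies inside the span RefSeq gives the gene (chr19:34583119-34588982), so its stretch is upstream only of that later start. The stretches belong to a pair of Ifit genes, a chemokine gene, a transcription factor gene and the light chain of class I molecules.
Ifit1 (chr19:34640789-34640828, plus strand): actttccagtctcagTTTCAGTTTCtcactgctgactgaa
Ifit3 (chr19:34583392-34583431, plus strand): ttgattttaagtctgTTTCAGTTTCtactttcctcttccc
Cxcl10 (chr5:92349078-92349117, minus strand): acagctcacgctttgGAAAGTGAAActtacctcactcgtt
Stat2 (chr10:128270261-128270300, plus strand): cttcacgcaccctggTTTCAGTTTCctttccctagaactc
B2m (chr2:122147533-122147572, plus strand): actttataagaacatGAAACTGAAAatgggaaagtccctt

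The log2 differences of the 12 genes with the motif ran from -0.11 (Ddx58) to 0.16 (Gbp3). None reached an unadjusted p of 0.05, where 10.7% of all genes did. Of the 12, Ifih1, Ifit1, Rsad2 and Gbp3 lay in the low range. The 7 without a printed stretch are Ifih1, Irf2, Oas1a, Rsad2, Bst2, Ddx58 and Gbp3. These matches are letters in a window and say nothing of occupancy in these cells.

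Of 8 antigen presentation genes, 1 reached an unadjusted p of 0.05, against 10.7% of all genes. Higher values were found for 6 of the 8, with the highest class median, 0.09. With the mean of each gene's probe sets in place of the brightest, that median was 0.03. Tap2, a subunit of the peptide transporter of the endoplasmic reticulum, had 6.13 and 6.02 in the control and 6.33 and 6.27 in the Ctcfl arrays, a log2 difference of 0.23 (SE 0.09, 95% interval 0.01 to 0.44, limma adjusted p = 0.456). The groups were 0.14 apart. Its partner subunit Tap1, which lies in the same gene cluster, had 0.02. Of the immunoproteasome subunits, Psmb8 and Psmb9 had 0.14 and 0.18 and Psmb10 had -0.13, all with overlapping groups. Tapbp, the tapasin gene that bridges transporter and class I molecule, had -0.06. B2m, the light chain of class I molecules, had 11.56 and 11.47 against 11.47 and 11.64, a difference of 0.04 (95% interval -0.20 to 0.28).

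Nlrc5, the transactivator of class I genes, had 7.51 and 7.54 in the control and 7.70 and 7.66 in the Ctcfl arrays, a log2 difference of 0.15 (SE 0.08, limma adjusted p = 0.545). This value comes from the brightest of 19 probe sets annotated to it. Over the 19, the differences ran from -0.18 to 0.21 with a median of 0.01, 10 of them above 0 and 9 below. The direction of Nlrc5 thus rested on the choice of probe set.

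**Figure D4:**
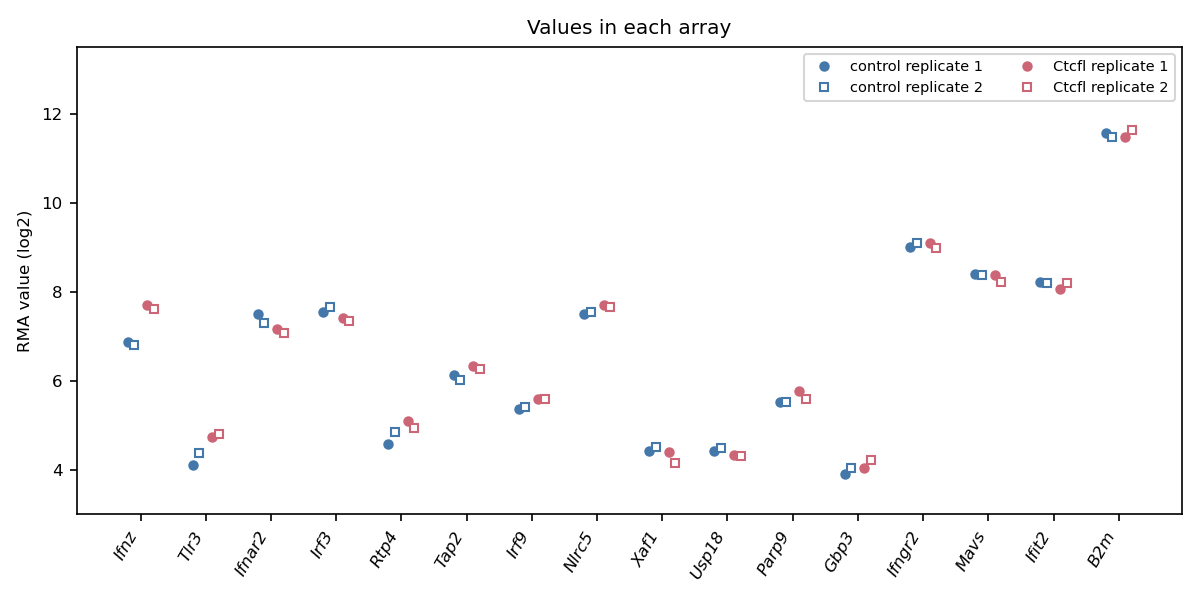
RMA value (log2, y axis) of 16 members in each array, the 12 with the smallest p in order from Ifnz to Gbp3 and then the brightest of each class not yet shown. For Ifnz the Ctcfl arrays stand 0.74 above the controls, while for Ifngr2, Mavs, B2m and Gbp3 the groups overlap.

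Genes of the pathway outside the 50 members, taken from 4 further lists of 90 genes, gave values for 78. None passed over all genes by limma, and 8 (10.3%) reached an unadjusted p of 0.05, against 10.7% of all genes. Of these 8, 3 were higher and 5 lower, where 5.36% and 5.32% of all genes were. The median log2 difference of the 78 was 0.02. In signalling and feedback 10 of 11 genes had higher values, where 9942 of all 19938 genes did, and the median was 0.09. Jak2, a kinase of the gamma receptor, had 8.41 and 8.58 in the control and 9.05 and 9.24 in the Ctcfl arrays, a difference of 0.65 (SE 0.11, 95% interval 0.39 to 0.91, adjusted p = 0.183). Tyk2, a kinase of the type I receptor, had 5.78 and 5.46 against 5.90 and 5.99, a difference of 0.33 (adjusted p = 0.444). Both genes had non-overlapping groups, as did 41.1% of all genes. Jak2 was the only one of the 78 past 1.5-fold, where 0.441% of all genes were.

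Of the further interferon-stimulated genes 19 of 37 had higher and 18 lower values. An unadjusted p of 0.05 was reached by 6 (16.2%), 1 higher and 5 lower. Of all genes 10.7% reached it, 5.36% higher and 5.32% lower. The 5 lower were Ifitm3, Ifitm2 (-0.23), Parp12 (-0.32), Iigp1 (-0.27) and Ifi203 (-0.27), the last 4 named after their values were seen. Ifitm3, a membrane protein that blocks virus entry, had 10.10 and 10.12 in the control and 9.68 and 9.64 in the Ctcfl arrays, a log2 difference of -0.45 (SE 0.08, 95% interval -0.65 to -0.25, adjusted p = 0.215). Lgals3bp, a secreted galectin-binding glycoprotein, had 6.24 and 6.30 against 6.81 and 6.76, a difference of 0.52 (SE 0.08, 95% interval 0.31 to 0.72, adjusted p = 0.180). In both genes the groups were far apart relative to their spread, in opposite directions. In nucleic acid sensing 0 of 17 genes reached an unadjusted p of 0.05, and the 2 with the smallest p were Irf4 (-0.21) and the adaptor Myd88 (-0.19). In class I antigen presentation 0 of 13 did, and the 2 with the smallest p were the proteasome activator Psme2 (-0.20) and the class I gene H2-Q4 (0.19), whose probes may also bind related class I transcripts.

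**Figure D5:**
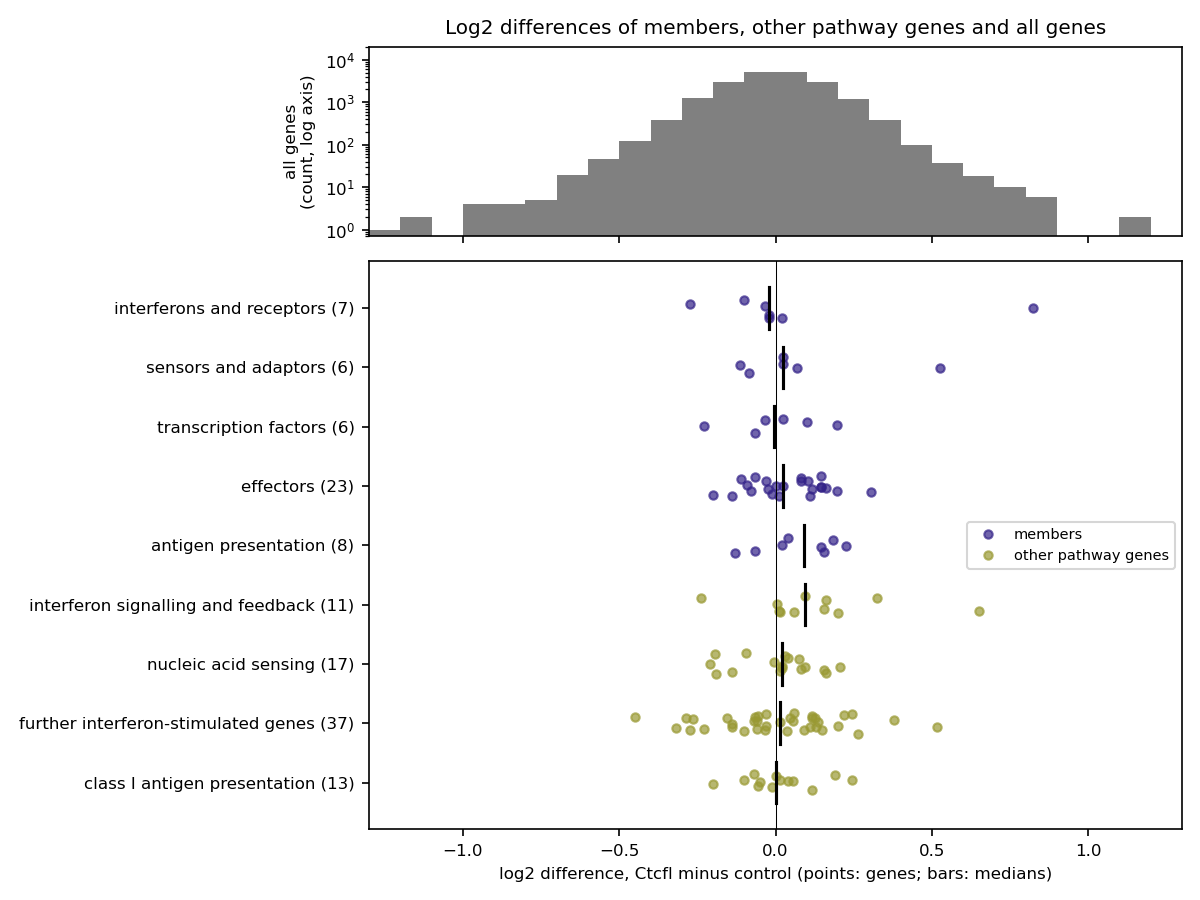
Log2 differences (x axis) of the 50 members by class and of the 78 other pathway genes by list (lower panel, points are genes and bars are medians), under the distribution over all genes on a log count axis (upper panel, where a few genes with larger differences fall outside the axis). The list medians lie between -0.02 and 0.095, and Ifnz at 0.82 and Jak2 at 0.65 are the points farthest from 0.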

How the data were processed

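Total RNA of 4 NIH3T3 samples was measured on Affymetrix arrays. The deposited values are log2 RMA expression values that the authors derived with Expression Console, per the labels, whose version is not given in the sources used here. In brief, the RMA method subtracts background, brings arrays to one distribution by quantiles and gives each probe set a single value. Of 35512 rows, 35511 held values, with array medians of 5.20 to 5.24. Gene names came from the platform annotation (21789 probe sets with 1 symbol, 1621 with several, 12101 unlisted), and 21698 matched RefSeq's GRCm38.p6 table by gene identifier. The brightest probe set stood for each of 19938 genes, with no filter on low values. The test of Ctcfl against control was that of limma 3.58.1 (R 4.3.3; lmFit, eBayes, 2 arrays per group, two-sided, Benjamini-Hochberg over all genes, threshold 0.05), after a check of the test on simulated data. Alternatives covered normalisation, filter, probe sets, variance model, replicate block and each array left out. Arrays are of 1 colour, and no depth or detection call applies.

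Members and lists were chosen with earlier results of these data known. Values per array are given for up to 12 members with the smallest p and the brightest of each class, with the 2 smallest p of each further list. Other members and the genes around Ifnz given with values were named as members or by position. Motifs and sequences came from RefSeq's window table for GRCm38.p6. Plots used matplotlib 3.10.9 (Python 3.11.15).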

Additional observations from a re-analysis of the deposited data

Results flagged for a closer look

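The 18 probe sets that the annotation ties to Ifnz together with other genes were outside the comparison by gene. They are listed because both Ctcfl arrays lay above both control arrays in each of the 18, where 20.6% of all genes had this. Their median log2 difference was 0.49. They share annotated genes, and some share all values, so they are not separate observations, and which gene gave the signal was not tested. Groups of 2 arrays are too small for a search for outlying arrays.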

How the results depend on the processing

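With 2 arrays per group the counts depended on the variance model, and the cause was not tested. Against 9 genes called over all genes, 20 were called without the dimmest genes, 479 with variances that follow intensity and are robust, and 0 with the replicate block, with ordinary t statistics (14 genes without spread left out), with all probe sets in one fit, and without any 1 array. At an unadjusted p of 0.05 there were 2129 genes (10.7%), against 1468 (7.36%) with the block, 1940 (9.74%) with ordinary t statistics and 1329 to 1663 with 1 array left out. The fit over all probe sets held 2764 of 35511 probe sets (7.78%). Of the members 0 were called, but 1, Ifnz, without the dimmest genes (adjusted p = 0.0347) and with the trend (4.91e-05). Members at an unadjusted p of 0.05 went from 6 to 3 with the replicate block, 3 with ordinary t statistics, 2 with all probe sets in one fit, and 2 to 7 with 1 array left out, where the lone array is assumed to vary like the others (2 without Ctcfl replicate 2, 3 without control replicate 1).

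Medians of log2 differences moved, some across 0. Over all members 0.0225 became 0.0053 after a further quantile normalisation and -0.0075 after median centring, and was -0.0025 to 0.0475 with 1 array left out. Interferons and receptors went from -0.02 to -0.05 after median centring, with -0.05 to 0.005 when 1 array was left out. Sensors went from 0.025 to -0.085 without the dimmest genes, and to -0.025 to 0.12 with 1 array left out. Effectors went from 0.025 to -0.005 after median centring, 0.08 without the dimmest genes, and -0.03 to 0.075 with 1 array left out. Transcription factors went from -0.005 to between -0.0625 and 0.08 with 1 array left out. Antigen presentation went from 0.0925 to 0.0625 after median centring and 0.03 with the mean of probe sets. Of named genes, Ifngr2 (-0.075 to 0.035) and B2m (-0.045 to 0.125) changed sign with 1 array left out, while Rtp4 (0.175 to 0.435), Ifnar2 (-0.375 to -0.175), Xaf1 (-0.325 to -0.075), Parp9 (0.06 to 0.23), Gbp3 (0.065 to 0.255), Mavs (-0.16 to -0.01) and Ifit2 (-0.14 to -0.02) moved by over 1.5 times and kept their sign. Ifnz was above 0 in every setting run, at least 0.42, the value from the probe sets that list its coding transcript, a setting chosen after seeing the data. Same-numbered arrays had a correlation of -0.10 in their deviations and the labels pair nothing, so the block is given only as an alternative.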
